A study of Homo sapiens with 6 samples.

Results

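The enzymes that hydroxylate and crosslink collagen were described here through 10 genes: the lysyl oxidase family (LOX, LOXL1, LOXL2, LOXL3 and LOXL4), the lysyl hydroxylases (PLOD1, PLOD2 and PLOD3) and the catalytic alpha subunits of collagen prolyl 4-hydroxylase (P4HA1 and P4HA2). They were chosen by gene symbol from a table of 20532 genes, each symbol matched 1 identifier, and all 10 passed the filter on low counts that left 13710 tested genes. The cells were MDA-MB-231 M3, human breast cancer cells labelled as bone-metastatic and named after the triple-negative line MDA-MB-231, grown in culture. There were 3 control libraries, whose labels say only that the cells were untreated or control, and 3 libraries of cells in which PRMT1, the main protein arginine methyltransferase for asymmetric dimethylation, was knocked down by siRNA (siPRMT1). The sources used here do not say whether the controls were transfected, which siRNA was used or how long after it RNA was collected, and all cells are of 1 line. The comparison asks how transcript levels differ after loss of PRMT1.

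Collagen chains are modified in 3 steps that these enzymes carry out. In the endoplasmic reticulum, prolyl 4-hydroxylases hydroxylate proline, which lets the triple helix fold at body temperature, and lysyl hydroxylases hydroxylate lysine. PLOD2 acts on the lysines of the telopeptides, the short ends outside the helix, and so sets which type of crosslink can form. PLOD1 acts mainly on lysines within the helix, and PLOD3 also glycosylates hydroxylysine. Outside the cell, the copper-dependent lysyl oxidases oxidise lysine and hydroxylysine, after which crosslinks form between collagen molecules. The hydroxylases need iron, 2-oxoglutarate and ascorbate. LOX, PLOD2, P4HA1 and P4HA2 are known targets of hypoxia-inducible factors (HIF). Whether the other members are HIF targets too was not examined. In breast cancer, stiff, crosslinked collagen and secreted LOX have been tied to invasion and to bone metastasis.

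Levels are in CPM, read counts scaled to library size times a factor per library (TMM). These factors were 1.116 to 1.117 in control and 0.895 to 0.897 in siPRMT1. They raise siPRMT1 levels against control relative to scaling by library size alone. In the siPRMT1 libraries 3 members fell at least 2-fold, 1 from each family: PLOD2 by 3.10, P4HA1 by 1.76 and LOX by 1.67 on the log2 scale. LOXL3 rose at least 2-fold (1.47), PLOD3 (0.97) and PLOD1 (0.79) rose by less, and P4HA2 (-0.29) and LOXL4 (-0.22) fell. LOXL2 (0.019) and LOXL1 (0.17) did not pass. The groups did not overlap for 8 members, against 89.1% of tested genes. The 8 members past the adjusted p of 0.05 (edgeR's quasi-likelihood test, Benjamini-Hochberg adjustment over all tested genes) stand against a background of 89.3% of all tested genes, so the number that passed is what these libraries give for any genes. By direction, 3 members rose where 44.3% of tested genes did, and 5 fell where 45% did. At least 2-fold changes were found for 4 members, against 36.3% of tested genes. The median log2 fold change was -0.10 over the members and -0.0082 over all tested genes.

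**Figure D1:**
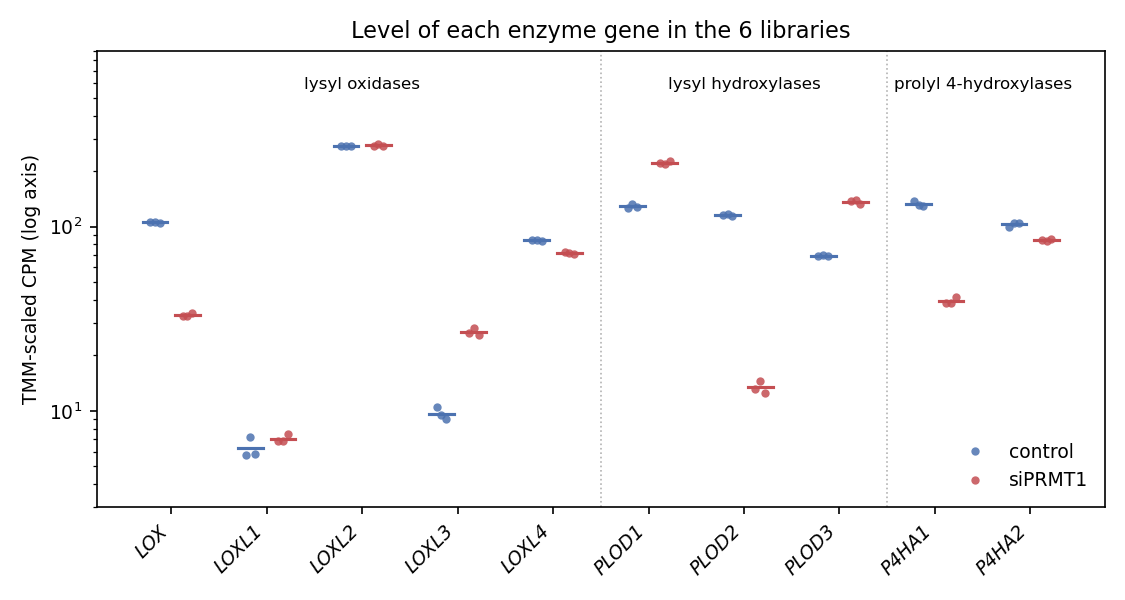
Level of each of the 10 enzyme genes in every library, in CPM (read counts scaled to library size by TMM) on a log axis. Each point is 1 library, blue for control and red for siPRMT1, and lines are means of 3. PLOD2, P4HA1 and LOX lie far lower in siPRMT1 and LOXL3, PLOD1 and PLOD3 higher, with no overlap between groups, while LOXL1 and LOXL2 overlap.

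The samples and their limits were as follows. Total counts per library ran from 16968563 to 20545995. PRMT1 itself lay between 144 and 149 CPM in control and at 11.9 to 12.0 CPM in siPRMT1. The 6 markers of the mesenchymal-like MDA-MB-231 line (VIM, CD44, LGALS1, CAV1, S100A4 and AXL) were all above 1 CPM in every library, and ESR1, PGR and FOXA1 of the luminal list were below it in every library. ERBB2 (59.9 to 74.9 CPM) and GATA3 (3.23 to 5.70 CPM), also in that list, were detected. Markers of other cell types below 1 CPM in every library were 5 of 8 for fibroblasts (THY1 at 0), 3 of 5 for osteoblasts, 3 of 5 for endothelium and 4 of 5 for leukocytes (TYROBP at 0). The summed fibroblast list went from between 10.6 and 13.3 CPM to between 23.98 and 27.6 CPM through COL1A1, which is also counted below as a collagen chain. The summed osteoblast list went from between 60.6 and 66.4 CPM to between 19.6 and 21.5 CPM through RUNX2 (59.3 to 65.2 CPM in control, 15.5 to 17.3 CPM in siPRMT1). BGLAP, also in that list, went the other way, from between 0.94 and 1.25 CPM to between 3.66 and 4.14 CPM. The endothelial sum was 25.4 to 26.4 CPM in control and 20.3 to 21.2 CPM in siPRMT1, and the leukocyte sum, almost all CD68, 199 to 203 CPM and 368 to 375 CPM. Mitochondrial genes took 5.001% to 5.09% of counts in control and 8.64% to 8.74% in siPRMT1. The part of these markers and of the mitochondrial share in the results was not tested. Levels come from bulk RNA, in which fewer expressing cells and less RNA per cell cannot be told apart.

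Fold changes in these libraries move with the base composition of the transcript, and the members fall at both ends of it. The canonical transcripts of PLOD2 (37.7% GC), LOX (39.6%), P4HA1 (39.7%) and P4HA2 (44.95%) lie under 45% GC. All 4 fell, as 81.0% of the 5132 tested genes under 45% GC had a negative log2 fold change (median -0.78). The other 6 members lie above 55% GC, from 55.4% for LOXL3 to 67.0% for LOXL1, where 14.01% of 4262 tested genes had a negative value (median 0.80). LOXL4, LOXL2, LOXL1 and, by less than 0.01, PLOD1 lie under that median, and PLOD3 and LOXL3 lie above it. Each member therefore also has a value labelled "corrected", fitted after removing the trend with transcript GC content and length. After it all 10 members passed (background 80.3%), 4 higher (background 37.7%) and 6 lower (background 42.6%), with a median of -0.53 beside -0.045 over all tested genes.

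**Figure D2:**
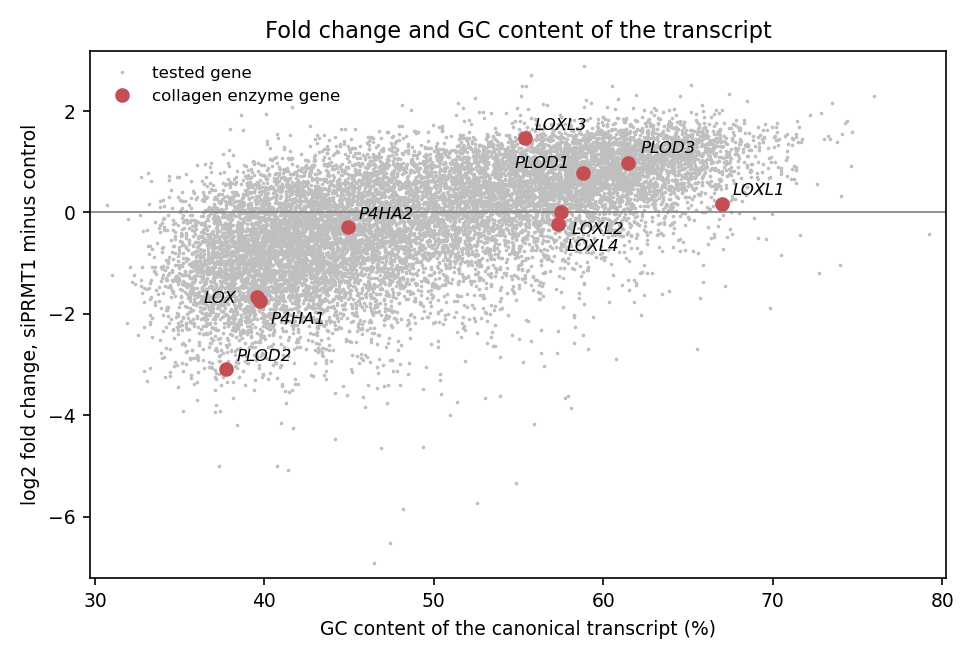
Log2 fold change (siPRMT1 minus control) of every tested gene against the GC content of its canonical transcript in percent. Grey dots are genes and red dots the 10 collagen enzyme genes. PLOD2 (-3.10) lies below most genes of like GC content, whose median under 45% GC is -0.78, and LOXL3 (1.47) above the median of 0.80 over 55% GC.

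The promoter windows of the members that changed at least 2-fold, and of PLOD1 as the relative of PLOD2 that rose, are printed because HIF target genes are among them. Each window is 300 bases of RefSeq's GRCh38.p14 sequence, from 250 bases before the annotated start site to 50 after it counting the start base, 5' to 3' on the gene's strand. Where RefSeq lists several start sites, the window nearest the start of the canonical transcript was taken (LOX has 3 windows and LOXL3 has 2). Capitals mark ACGTG or GCGTG on either strand (read as CACGT or CACGC on the other), the core letters of the hypoxia response element. The windows are at chr5:122078210-122078509 (LOX, minus strand), chr3:146161135-146161434 (PLOD2, minus), chr10:73096817-73097116 (P4HA1, minus), chr2:74553893-74554192 (LOXL3, minus) and chr1:11934467-11934766 (PLOD1, plus).
LOX: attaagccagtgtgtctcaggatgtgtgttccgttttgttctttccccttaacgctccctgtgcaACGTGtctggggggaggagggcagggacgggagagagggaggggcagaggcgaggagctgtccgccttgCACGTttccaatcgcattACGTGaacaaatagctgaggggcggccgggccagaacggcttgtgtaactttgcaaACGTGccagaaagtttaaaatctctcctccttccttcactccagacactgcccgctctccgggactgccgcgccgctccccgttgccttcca
PLOD2: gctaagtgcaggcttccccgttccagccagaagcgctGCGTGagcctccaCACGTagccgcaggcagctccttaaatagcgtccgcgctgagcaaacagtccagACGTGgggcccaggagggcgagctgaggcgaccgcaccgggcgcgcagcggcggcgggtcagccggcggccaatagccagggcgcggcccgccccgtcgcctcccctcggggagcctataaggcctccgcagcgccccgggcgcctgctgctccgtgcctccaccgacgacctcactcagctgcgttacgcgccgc
P4HA1: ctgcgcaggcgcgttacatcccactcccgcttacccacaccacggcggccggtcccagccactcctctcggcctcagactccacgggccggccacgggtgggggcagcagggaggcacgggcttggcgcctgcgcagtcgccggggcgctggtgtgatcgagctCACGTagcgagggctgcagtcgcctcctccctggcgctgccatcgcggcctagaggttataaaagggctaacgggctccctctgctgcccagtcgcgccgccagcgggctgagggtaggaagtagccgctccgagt
LOXL3: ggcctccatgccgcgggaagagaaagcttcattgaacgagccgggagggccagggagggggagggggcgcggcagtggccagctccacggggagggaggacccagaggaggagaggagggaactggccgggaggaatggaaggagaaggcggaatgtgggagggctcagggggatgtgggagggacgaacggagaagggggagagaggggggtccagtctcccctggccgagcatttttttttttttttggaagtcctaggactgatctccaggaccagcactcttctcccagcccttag
PLOD1: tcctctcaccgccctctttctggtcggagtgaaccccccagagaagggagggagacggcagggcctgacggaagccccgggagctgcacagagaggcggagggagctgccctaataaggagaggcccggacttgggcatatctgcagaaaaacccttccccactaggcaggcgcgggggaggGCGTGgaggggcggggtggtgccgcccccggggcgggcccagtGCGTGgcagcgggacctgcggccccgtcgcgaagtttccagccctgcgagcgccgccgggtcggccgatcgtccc
ACGTG on either strand was found in the windows of LOX (4 matches, beginning 185, 116, 98 and 42 bases before the start site), PLOD2 (2 matches, 200 and 146 bases before it) and P4HA1 (1 match, 86 bases before it). PLOD2 also has GCGTG 213 bases before the start, and PLOD1 has GCGTG 68 and 25 bases before it but no ACGTG. Of 9 members with a window in the table, the 3 that hold ACGTG are the 3 that fell at least 2-fold, a match noticed in these data. It is 1 of several motifs searched, and the others did not give this match. ACGTG or GCGTG is held by 4 members, among them PLOD1, which rose. GGGCGG was found for LOX, LOXL4, PLOD1, PLOD2 and PLOD3, CCAAT for LOX, P4HA2 and PLOD2, and TATAAA for P4HA1. The match was therefore picked after the fact and was not tested. The start site of the P4HA2 window lies 762 bases from the start of its canonical transcript. That window therefore does not cover the canonical start, and its lack of ACGTG does not describe the sequence there. The corrected value of LOX (-0.74) is under 2-fold. ACGTG stands in the window of 26.5% of the 10720 tested genes with one, and ACGTG or GCGTG in 63.6%. Over all 35116 promoter windows of that length the shares are 21.4% and 48.4%. Over those tested genes, the median of the log2 fold change was -0.036 for the 2846 with ACGTG and -0.035 for the others, nearly the same. A match describes letters in the window and shows no binding.

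Among the lysyl oxidases, LOX, the founding member and the one most tied to metastatic spread (ENSG00000113083; hg38, chromosome 5, 122063195 to 122077472, minus strand), had 106, 105 and 105 CPM in control and 32.9, 32.6 and 34.1 CPM in siPRMT1. All siPRMT1 libraries lay far below all controls, and neither group varied by more than a few percent. The means were 106 ± 0.787 and 33.2 ± 0.783 CPM (SD, n = 3 each), 3.18-fold lower, with a log2 fold change of -1.67 (SE 0.0380; edgeR quasi-likelihood adjusted p = 4.36e-178). The corrected log2 fold change was -0.74 (edgeR quasi-likelihood adjusted p = 3.49e-25). SRFBP1, on the opposite strand, shares 2.47% of the exonic bases of LOX and fell too (-1.83). Its part in the LOX value was not tested.

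LOXL2, a secreted and partly nuclear lysyl oxidase (ENSG00000134013; chromosome 8, 23296897 to 23425301, minus strand), was the most abundant of the family in both groups. It had 273, 273 and 274 CPM in control and 274, 282 and 274 CPM in siPRMT1. The groups overlapped, and the difference was 0.019 on the log2 scale (SE 0.0188, 95% interval -0.018 to 0.056; edgeR quasi-likelihood adjusted p = 0.339). The sign of this value depends on the scaling: it was -0.30 with library size alone and -0.40 corrected, and both of these passed. ENTPD4, on the same strand, shares 2.01% of the exonic bases of LOXL2 and fell (-0.64, but 0.035 corrected). Its part in the LOXL2 value was not tested.

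LOXL4, which like LOXL2 carries scavenger receptor domains (ENSG00000138131; chromosome 10, 98247690 to 98268194, minus strand), had 84.9, 84.2 and 83.2 CPM in control and 72.8, 72.3 and 70.7 CPM in siPRMT1. The groups did not overlap, but the difference was small, 1.17-fold lower. On the log2 scale the difference was -0.22 (SE 0.0331; edgeR quasi-likelihood adjusted p = 4.64e-11) and -0.66 corrected.

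LOXL3, needed in development for collagen of the spine and palate (ENSG00000115318; chromosome 2, 74532258 to 74555690, minus strand), went the other way. Its level was 10.5, 9.45 and 8.99 CPM in control and 26.5, 28.1 and 25.7 CPM in siPRMT1. Every siPRMT1 library lay above every control, and the mean was 2.77-fold higher, a log2 fold change of 1.47 (SE 0.0682; edgeR quasi-likelihood adjusted p = 5.88e-74). Among tested genes, 498 had a higher log2 fold change. The corrected value was 1.19. HTRA2, a protease gene on the opposite strand, shares 20.7% of the exonic bases of LOXL3 and rose as well, from 30.9 ± 1.47 to 67.1 ± 2.02 CPM (SD, n = 3 each), with a log2 fold change of 1.12 (0.14 corrected), and DOK1 shares 4.78%. The sources used here do not give the strand setting of the counting, so the LOXL3 value is uncertain.

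LOXL1, which acts on elastin (ENSG00000129038; chromosome 15, 73925989 to 73951919, plus strand), was the least abundant by read count. It had 126, 145 and 124 reads in control and 111, 126 and 114 in siPRMT1, or 5.75, 7.25 and 5.84 CPM against 6.89, 6.85 and 7.49 CPM. The groups overlapped through control replicate 2. On the log2 scale the difference was 0.17 (SE 0.106, 95% interval -0.034 to 0.38; edgeR quasi-likelihood adjusted p = 0.112). It passed at 0.28 without control replicate 2, was -0.14 with library size alone, and -0.91 corrected. LOXL1-AS1, a long noncoding RNA gene on the opposite strand, shares 9.21% of the exonic bases of LOXL1. Such genes also share exonic bases of P4HA2 (5.41%), LOXL4 (4.23%), LOXL2 (2.97%) and P4HA1 (1.52%). None of these noncoding genes was among the counted genes, and their part in the values of these members was not tested.

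Among the lysyl hydroxylases, PLOD2, the telopeptide enzyme (ENSG00000152952; chromosome 3, 146035139 to 146163709, minus strand), fell most of all members. It had 115, 116 and 115 CPM in control and 13.2, 14.5 and 12.5 CPM in siPRMT1. These are 2521, 2331 and 2440 reads against 213, 267 and 191. The groups lay the farthest apart of all members, with means of 115 ± 0.898 and 13.4 ± 1.004 CPM (SD, n = 3 each), 8.55-fold lower. On the log2 scale the difference was -3.10 (SE 0.0462; edgeR quasi-likelihood adjusted p = 9.07e-260), and 96 of the 13710 tested genes had a lower one. The corrected value was -2.26.

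PLOD1, the helical enzyme whose loss causes kyphoscoliotic Ehlers-Danlos syndrome (ENSG00000083444; chromosome 1, 11934205 to 11975538, plus strand), had 127, 132 and 127 CPM in control and 221, 218 and 228 CPM in siPRMT1. All siPRMT1 libraries lay above the controls, 1.73-fold in the mean, with a log2 fold change of 0.79 (SE 0.0239; edgeR quasi-likelihood adjusted p = 1.14e-129). The corrected value was 0.14.

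PLOD3, which also carries glycosyltransferase activity (ENSG00000106397; chromosome 7, 101205977 to 101218366, minus strand), had 69.4, 70.1 and 69.5 CPM in control and 137, 139 and 133 CPM in siPRMT1. It rose 1.96-fold without overlap between groups, with a log2 fold change of 0.97 (SE 0.0299; edgeR quasi-likelihood adjusted p = 6.27e-127). The corrected value was 0.17. For PLOD1 and PLOD3 the corrected rise was much smaller, with the same direction and side of the threshold. ZNHIT1, on the opposite strand, shares 1.8% of the exonic bases of PLOD3 and rose too (1.20, and -0.073 corrected). Its part in the PLOD3 value was not tested.

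Of the prolyl 4-hydroxylase alpha subunits, P4HA1, the main form in most cells (ENSG00000122884; chromosome 10, 73007217 to 73096850, minus strand), had 138, 131 and 130 CPM in control and 38.3, 38.6 and 41.5 CPM in siPRMT1. The groups lay far apart, with means of 133 ± 4.51 and 39.5 ± 1.79 CPM (SD, n = 3 each), 3.38-fold lower. On the log2 scale the difference was -1.76 (SE 0.0350; edgeR quasi-likelihood adjusted p = 3.49e-202) and -1.25 corrected.

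P4HA2, the second form, prominent in cartilage and endothelium (ENSG00000072682; chromosome 5, 132190147 to 132295315, minus strand), had 100.01, 105 and 104 CPM in control and 84.2, 83.04 and 85.3 CPM in siPRMT1. It was 1.22-fold lower with no overlap between the groups, with a log2 fold change of -0.29 (SE 0.0308; edgeR quasi-likelihood adjusted p = 1.38e-19). After the correction it was higher, at 0.24 (edgeR quasi-likelihood adjusted p = 3.48e-10), so its direction depends on that choice.

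**Figure D3:**
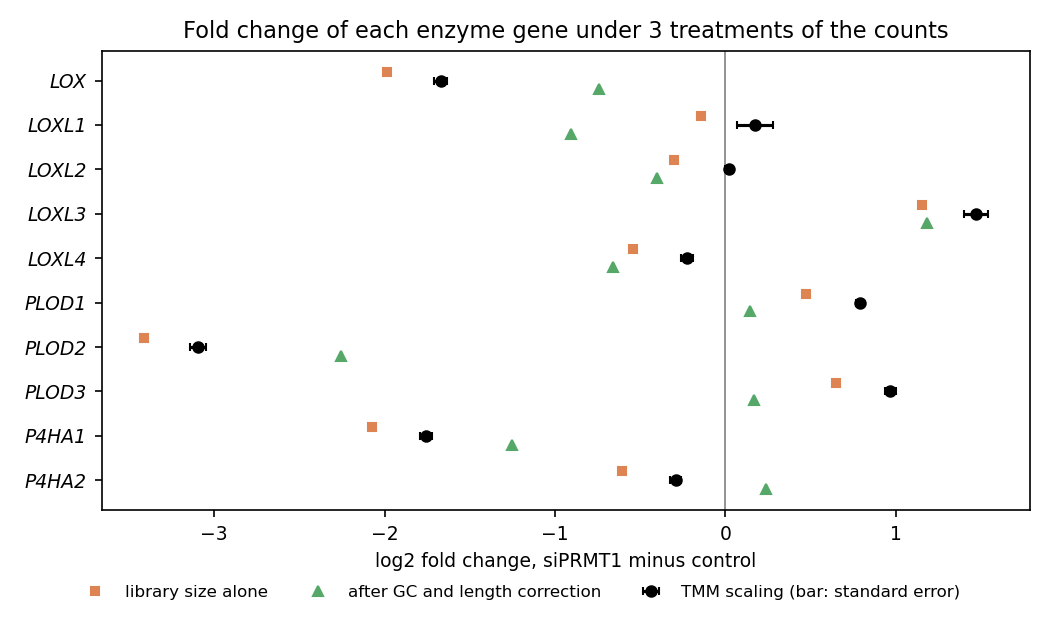
Log2 fold change (siPRMT1 minus control) of each enzyme gene with TMM scaling (black, bars are standard errors), with library size alone (orange squares) and after the GC and length correction (green triangles). PLOD2, P4HA1 and LOX are negative and LOXL3, PLOD1 and PLOD3 positive under all 3, while LOXL1, LOXL2 and P4HA2 change sign.

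Levels can be compared between genes only per length, and CPM per kilobase of the canonical transcript is used for this. In the control libraries the order was LOXL2 (73.5), P4HA1 (48.4), PLOD1 (43.3), PLOD2 (30.8), PLOD3 (24.7), LOXL4 (23.4), P4HA2 (22.7), LOX (20.8), LOXL1 (2.68) and LOXL3 (2.62). Ranges of neighbours in that order overlapped only for LOXL1 and LOXL3. In the siPRMT1 libraries it was PLOD1 (74.8), LOXL2 (74.4), PLOD3 (48.3), LOXL4 (19.998), P4HA2 (18.5), P4HA1 (14.4), LOXL3 (7.25), LOX (6.54), PLOD2 (3.58) and LOXL1 (3.02). There only PLOD1 and LOXL2 overlapped. With these lengths P4HA1 and PLOD2 thus went from the second and the fourth place to the sixth and the ninth, and PLOD3 from the fifth to the third.

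The share of each gene in the per-length level of its own family does not depend on scaling between libraries. PLOD2 made up 31.3%, 31.0% and 31.3% of the lysyl hydroxylases in control and 2.79%, 3.07% and 2.63% in siPRMT1. PLOD1 took 43.8% ± 0.411 and 59.1% ± 1.16 and PLOD3 25.001% ± 0.216 and 38.1% ± 0.955 (SD, n = 3 each). LOX made up 16.999%, 16.9% and 16.9% of the lysyl oxidases in control and 5.86%, 5.70% and 6.10% in siPRMT1. LOXL2 made up 59.5%, 59.5% and 60.2% in control and 66.7%, 67.2% and 66.8% in siPRMT1. The share of LOXL3 was 2.13% ± 0.170 in control and 6.52% ± 0.212 in siPRMT1 (SD, n = 3 each). P4HA2 made up 30.4%, 32.7% and 32.6% of the sum of P4HA1 and P4HA2 in control and 57.04%, 56.5% and 55.3% in siPRMT1. Which alpha subunit transcript was the more abundant after knockdown depends on the length used: with the deposited gene length the share of P4HA2 was 19.2% in control and 39.5% in siPRMT1, so P4HA1 stayed above it. The groups did not overlap for any of these shares. Each gave p = 0.10 in a two-sided exact permutation test, the smallest that 3 against 3 samples allow. After the GC and length correction the PLOD2 share went from 21.0% to 4.74%, that of P4HA2 from 31.6% to 56.6%, that of LOX from 11.2% to 9.10% and that of LOXL2 from 63.4% to 64.8%. The differences for LOX and LOXL2 were thus much smaller.

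**Figure D4:**
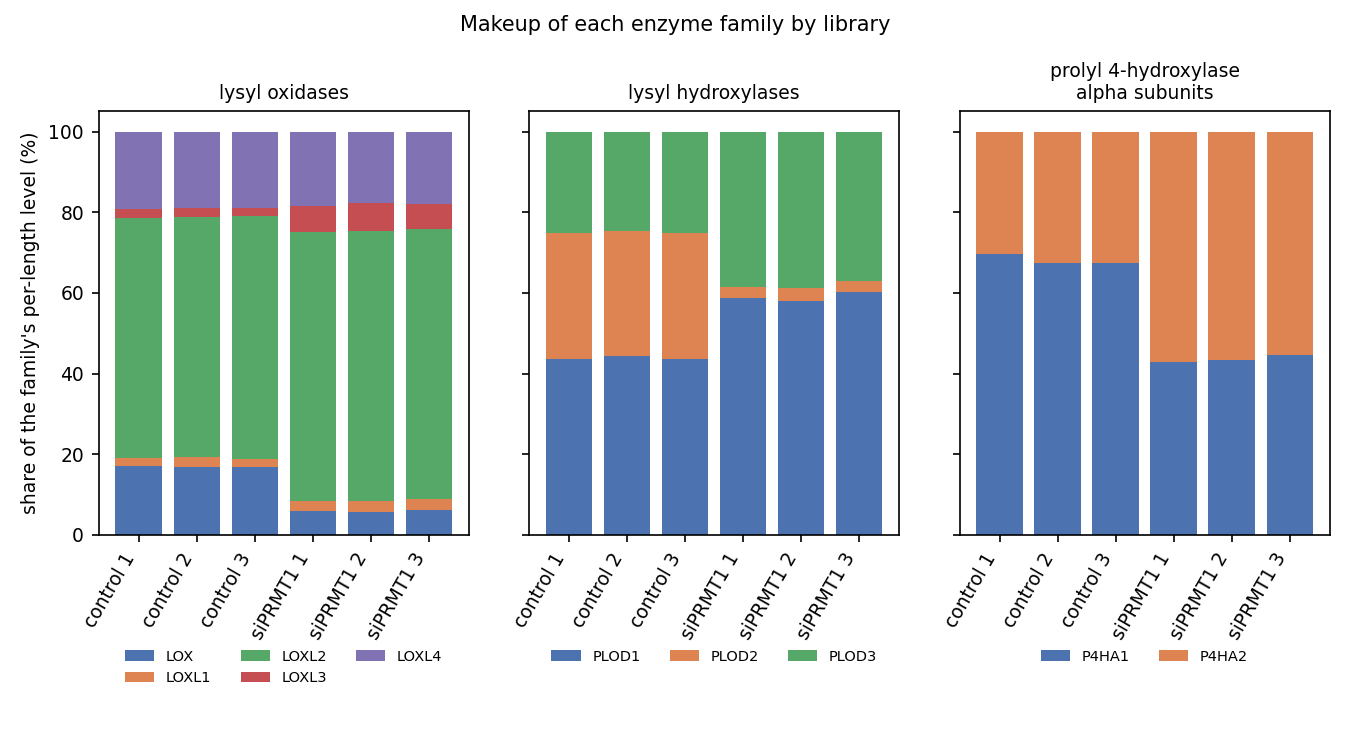
Share in percent of each gene in the summed per-length level of its family, 1 bar per library. PLOD2 shrinks from 31.2% to 2.83% of the lysyl hydroxylases (means of 3 libraries), LOX from 16.9% to 5.89% of the lysyl oxidases, and P4HA2 grows from 31.9% to 56.3% of the alpha subunits.

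Summed over a family, the alpha subunits went from 71.1 ± 1.08 to 32.9 ± 0.862 CPM per kilobase (SD, n = 3 each), and were also lower corrected (59.6 and 39.3). The lysyl oxidases were at 123 ± 0.490 and 111 ± 1.44, and lower by more with library size alone (137 and 99.6). The lysyl hydroxylases were at 98.7 ± 1.38 and 127 ± 0.511, but at 110.2 and 113.4 with library size alone, a difference of 2.94% in place of 28.2%, and at 109.8 and 101 corrected, so the size and direction of their sum depend on the scaling and the correction. Each of these 3 differences had p = 0.10 in the exact permutation test, the smallest possible. P4HB, the beta subunit (protein disulfide isomerase) that the alpha subunits need to be active, was named after its values were seen. It rose from 897 ± 5.26 to 1202 ± 11.4 CPM (log2 fold change 0.42, but -0.28 corrected). Per kilobase, P4HA1 and P4HA2 together came to 19.3% ± 0.400 of the P4HB level in control and 6.67% ± 0.198 in siPRMT1 (SD, n = 3 each), or 12.7% and 10.2% corrected.

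For the lists of other pathway genes, the shares to read the counts against are 44.3% higher and 45% lower over all tested genes, and 37.7% and 42.6% after the correction. The lists were chosen with earlier results of these data known, so these shares give scale and are no independent test. Of the other genes of collagen modification in the endoplasmic reticulum, 13 were tested (14 listed), of which 8 rose (background 44.3%) and 4 fell (background 45%), with a median log2 fold change of 0.42 against -0.0082 for all tested genes. After the correction 5 were higher (background 37.7%) and 4 lower (background 42.6%), with a median of 0.011. SERPINH1, the collagen chaperone HSP47, rose from 172 ± 1.74 to 439 ± 4.85 CPM (1.35; 0.42 corrected). PPIB, a prolyl isomerase, rose from 254 ± 2.24 to 641 ± 9.20 CPM (1.34; 0.38 corrected). PPIB works in a complex with the prolyl 3-hydroxylase P3H1 (0.74; 0.082 corrected) and CRTAP (0.068; 0.56 corrected, but -0.25 with library size alone), which also rose and were named after their values were seen. P3H4, a partner of PLOD1, rose by 1.00 (0.071 corrected, where it did not pass). TMEM38B, a potassium channel of the endoplasmic reticulum whose loss causes brittle bones (-1.16; -0.21 corrected), the collagen galactosyltransferase COLGALT2 (-0.80; -0.51 corrected) and P3H2 (-0.71; -0.72 corrected) fell. COLGALT1, named after its values were seen, rose (0.44; -0.025 corrected). The third alpha subunit, P4HA3, was low at 1.96 ± 0.251 and 2.48 ± 0.186 CPM (SD, n = 3 each) and did not pass (0.33; edgeR quasi-likelihood adjusted p = 0.0798).

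Of 10 tested genes of collagen export and of propeptide cleavage (13 listed), 7 fell (background 45%) and 3 rose (background 44.3%), with a median of -0.73. After the correction 5 were lower (background 42.6%) and 3 higher (background 37.7%), with a median of -0.28. The vesicle coat genes SEC24D, from 90.7 ± 2.02 to 12.7 ± 0.616 CPM, and SEC23A, from 117 ± 1.46 to 17.2 ± 0.706 CPM, carry procollagen out of the endoplasmic reticulum. Both fell, SEC24D with a log2 fold change of -2.84 (-2.42 corrected) and SEC23A of -2.76 (-2.02 corrected), beside -3.10 for PLOD2. MIA3, which encodes the cargo receptor TANGO1, fell (-0.77) but was higher corrected (0.32). BMP1, the protease that removes the C-propeptide of procollagen and also activates LOX, rose from 53.7 ± 3.09 to 116 ± 3.10 CPM (1.10; 0.51 corrected).

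Of 7 tested partners of lysyl oxidases (9 listed), 3 fell (background 45%), 2 rose (background 44.3%) and 2 did not pass, with a median of -0.28 (corrected: 2 higher, 3 lower, median -0.12). Fibronectin (FN1), a scaffold that binds LOX, fell from 430.5 ± 2.27 to 141 ± 0.721 CPM (-1.61; -1.10 corrected). ATP7A, the pump that loads copper onto secreted enzymes, fell by 1.41 (-0.17 corrected), and the copper importer SLC31A1 fell (-0.50) but was higher corrected (0.11). ATOX1, the copper chaperone that delivers to ATP7A, rose by 1.21 (0.22 corrected).

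Among the collagen chains themselves, 7 of 12 tested (15 listed) fell (background 45%) and 5 rose (background 44.3%), with a median of -0.34. After the correction 8 were lower (background 42.6%) and 2 higher (background 37.7%), with a median of -0.37. COL1A1 rose from 7.05 ± 0.987 to 22.9 ± 1.81 CPM (1.70; 1.39 corrected), while its partner chain COL1A2 was below the filter on low counts. COL4A2 (0.55; 0.27 corrected) of basement membranes rose, and COL6A2 rose (0.62) but was lower corrected (-0.17). COL6A3 (-2.57; -2.15 corrected) and the fibril-associated COL12A1 (-2.55; -1.67 corrected) fell, as did COL7A1 (-0.74; -0.96 corrected), the anchoring fibril collagen.

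Of 8 genes for hypoxia-inducible factors and their regulators, 6 fell (background 45%) and 1 rose (background 44.3%), with a median of -0.70. After the correction 6 were lower (background 42.6%) and 2 higher (background 37.7%), with a median of -0.47. HIF1A, the oxygen-regulated subunit, went from 492 ± 5.98 to 43.2 ± 2.92 CPM (SD, n = 3 each), a log2 fold change of -3.50 (SE 0.0258; -2.74 corrected). Its partner ARNT (-1.13; -0.65 corrected) and the oxygen sensor EGLN1 (-1.07; -0.65 corrected) fell, and EGLN2 rose (1.04; -0.064 corrected). HIF1AN did not pass (0.015; edgeR quasi-likelihood adjusted p = 0.671), and was at 0.88 corrected. The 12 HIF target genes outside the collagen enzymes were also listed with earlier results of these data known, so their counts are no independent test. Of the 12, 11 fell (background 45%), with a median of -0.84. After the correction all 12 were lower (background 42.6%), with a median of -0.90. PDK1 (-1.80; -0.49 corrected), MXI1 (-1.64; -1.22 corrected) and KDM3A (-1.27; -0.66 corrected) fell most among those with at least 5 CPM. ANKRD37 did not pass (-0.052; edgeR quasi-likelihood adjusted p = 0.504). The 4 members named above as HIF targets had log2 fold changes of -3.10 (PLOD2), -1.76 (P4HA1), -1.67 (LOX) and -0.29 (P4HA2). The last was 0.24 corrected. These are also the 4 members under 45% GC. Whether other members are HIF targets was not examined, so targets and non-targets among the members cannot be compared here. Of the other members, LOXL4 fell (-0.22), LOXL3 (1.47), PLOD3 (0.97) and PLOD1 (0.79) rose, and LOXL1 (0.17) and LOXL2 (0.019) did not pass. Whether the changes of HIF genes, HIF targets and members are linked was not tested.

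For the cofactors of the hydroxylases, 3 of 5 tested genes (6 listed) fell (background 45%) and 2 rose (background 44.3%), with a median of -0.42 (corrected: 1 higher, 4 lower, median -0.29). SLC23A2, an ascorbate transporter, fell from 52.01 ± 1.28 to 16.9 ± 0.790 CPM (-1.62; -1.09 corrected), and SLC2A3, a glucose transporter that also takes up dehydroascorbate, rose (0.76; 1.14 corrected). Of the enzymes that make 2-oxoglutarate, IDH1 (-0.74; -0.50 corrected) and GLUD1 (-0.42; -0.10 corrected) fell, and IDH2 rose (0.23) but was lower with library size alone (-0.082) and corrected (-0.29).

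**Figure D5:**
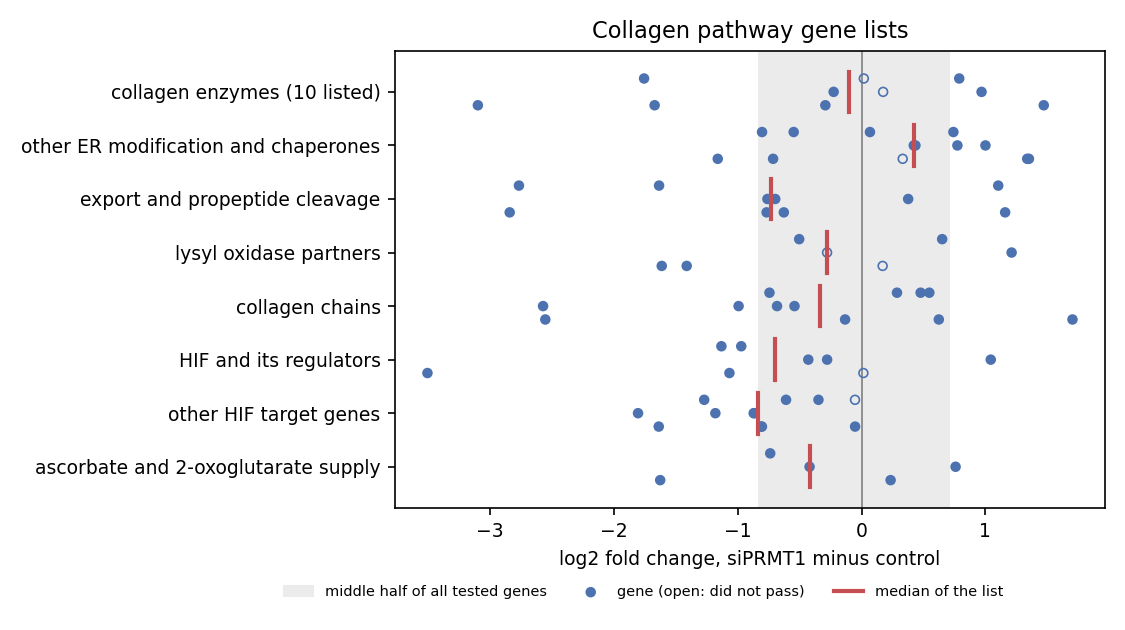
Log2 fold change (siPRMT1 minus control) of each tested gene in the collagen pathway lists, 1 row per list, with filled points past the adjusted p of 0.05 and open points not. Red lines are list medians, from -0.84 for the HIF targets to 0.42 for the other genes of modification in the endoplasmic reticulum, and the grey band spans the middle quartiles of all tested genes.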

How the data were processed

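RNA was sequenced from 6 samples, 3 control and 3 siPRMT1. Per the labels' protocols, the libraries were stranded mRNA libraries read as pairs of 150 bases. The submitters' processing notes list hg38, STAR 2.7.6a, fastp 0.23.2, edgeR 3.40.2, featureCounts and Subread 1.5.1. The sources used here do not give the annotation release, strand setting or duplicate handling. The authors deposited unnormalized counts of reads for each gene, all whole numbers, together with a gene length per the file headers. From these counts, edgeR 4.0.16 in R 4.3.3 was run on all genes: filterByExpr, TMM scaling, glmQLFit and glmQLFTest, with Benjamini-Hochberg adjustment over 13710 genes. Levels are CPM after TMM scaling, log2 fold changes are siPRMT1 minus control, and SEs come from the F statistic. The common dispersion sat at the lowest value searched (9.77e-05), so p-values reflect only how these samples scatter. The labels call them biological replicates without saying that they were separate transfections, so that scatter may be technical. Replicate pairs differed by slightly more than sampling noise (chi-square per degree of freedom 1.05 to 1.38), so all 6 were kept.

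Lengths and GC content are those of the canonical transcript in GENCODE 44, known for 13694 tested genes. The deposited start and end were the same as in that release for 4 of the 10 members, so positions are the deposited ones, and lengths and overlaps those of GENCODE. In the correction, splines with 5 degrees of freedom on GC and on log length were fitted per sample to log-CPM deviations (prior count 2) and removed as offsets. Shares and sums used Python 3.11.15 and scipy 1.17.1. Promoter sequences are RefSeq's (GRCh38.p14), with 9 of 10 members found and none for LOXL2. The fits were tested on simulated counts in which few genes were given a known fold change. Data in which most genes change, apart from a trend with GC, were not simulated.

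The members and the 7 gene lists were chosen with earlier results of these data known. All members are named, and from each list up to 3 genes per direction with the highest and lowest log2 fold change past the threshold at a mean of at least 5 CPM, plus any gene alone in its direction or in not passing. Exceptions are marked. Alternatives were other scalings (RLE, upper quartile, library size alone), DESeq2 1.42.0, limma-voom (limma 3.58.1), robust edgeR, other filters, glmTreat, the replicate block, the correction, other lengths, and leaving out each sample.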

Additional observations from a re-analysis of the deposited data

How the results depend on the processing

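PLOD2, P4HA1, LOX, LOXL3, PLOD1, PLOD3 and LOXL4 kept their direction under all 18 alternatives and their side of the threshold under all but glmTreat against a 2-fold change, which 4 of the members passed and which left 4111 of all genes past it instead of 12243. With library size alone the median of all genes moved from -0.0082 to -0.33, and 37.7% of the changed genes were higher instead of 49.6%; among the members 3 rose and 6 fell. That scaling turned LOXL1 (-0.14), LOXL2 (-0.30), CRTAP (-0.25), HIF1AN (-0.30) and IDH2 (-0.082), and upper-quartile scaling turned LOXL2 (-0.029) and HIF1AN (-0.032). The GC and length correction, with or without the replicate block, turned LOXL1 (-0.91), LOXL2 (-0.40), P4HA2 (0.24), COL6A2 (-0.17), COLGALT1 (-0.025), MIA3 (0.32), P4HA3 (-0.23), P4HB (-0.28), SLC31A1 (0.11), EGLN2 (-0.064, and -0.063 with the block) and IDH2 (-0.29, and -0.28 with the block). The cause was not tested. Leaving out single samples turned HIF1AN (-0.0044 without control replicate 2, range up to 0.030) and ANKRD37 (0.030 without siPRMT1 replicate 1, range down to -0.097), gave 12069 to 12159 genes and 8 to 9 members past the threshold, and let LOXL1 pass without control replicate 2 (0.28, edgeR quasi-likelihood adjusted p = 0.0226).

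Same-numbered samples did not deviate together (correlation of deviations from the group means -0.010 to 0.037), and the labels do not say that a number marks a shared culture. With the replicate number as a block 12219 genes and 8 members passed, and no call of a member changed. For the shares, siPRMT1 minus control ranged from -33.2 to -16.2 percentage points for PLOD2, -20.4 to -2.14 for LOX, 1.41 to 13.98 for LOXL2 and 20.3 to 24.9 for P4HA2 over other lengths (the deposited gene length was added after seeing the data), the correction and left-out samples. LOXL1, with at most 145 reads in a library, is the member whose value is limited most by depth.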
